A study of Gallus gallus and Dromaius novaehollandiae with 40 samples.

Results

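PRRX1, PRRX2, ALX1 and ALX4 are homeobox genes of the paired class, read here in the early forelimb-level tissues of the chick (Gallus gallus) and the emu (Dromaius novaehollandiae). They were chosen by symbol, and they make up 4 of the 12338 genes in the early tables. All 4 have a row in the tables of both species and passed the filter on low counts in both.

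The emu has a much reduced wing whose bud grows out late, and the study set its embryonic limb tissues beside those of the chick. Of the 40 libraries in the labels, 17 come from early embryos and are used here. The lateral plate is mesoderm beside the somites, taken before it splits, the somatopleure holds its outer layer, from which the limb bud grows, and the splanchnopleure holds the inner layer next to the gut. The chick has 3 libraries of each tissue (numbers 30, 31 and 32 for lateral plate, 15, 60 and 63 for somatopleure, 50, 61 and 64 for splanchnopleure). The emu has 3 of lateral plate (1, 8 and 23), 3 of somatopleure (5, 13 and 53) and 2 of splanchnopleure (6 and one labelled as a pool). The labels give no treatment, genotype or strain. They date the lateral plate to Hamburger and Hamilton stage 10 (HH10) and the layers to HH13, apart from emu lateral plate 1, dated HH13, and emu somatopleure 13, dated HH10. Tissue and stage otherwise change together, so in a comparison with the lateral plate the effects of tissue and of stage cannot be told apart. Whether the libraries of a tissue came from separate embryos is not stated, so the p-values measure a spread between libraries that may be technical.

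Paired-class homeobox proteins bind DNA and switch target genes on or off. PRRX1 and PRRX2 are close relatives that mark the mesenchyme of the limb buds and the face, and in mice they act together in growth of the limb skeleton. ALX4 acts in the limb bud mesenchyme, where its loss in mice gives extra digits on the anterior side, and ALX1 is best known from the mesenchyme of the head and face.

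Total counts ran from 5061393 to 8348865 per library in the chick and from 7350786 to 8601471 in the emu. Levels below are given as CPM, with library sizes scaled by TMM and no correction for gene length, so they are compared between tissues and not between genes. Fold changes are on the log2 scale with their standard error (SE), and a gene is said to have risen or fallen where its adjusted p in edgeR's quasi-likelihood test, adjusted over all genes of the table, was under 0.05. In whole-tissue RNA, fewer cells of a type and less RNA per cell cannot be told apart. Statements that the libraries of tissues do not overlap describe the values printed and are no test. The share of all genes that separate so is given only for emu somatopleure against lateral plate.

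Among the chick tissues, the somatopleure held the highest mean level of each of the 4 genes. All of them rose in it against the splanchnopleure, where 7.34% of the 10071 genes tested rose, and 3 of them rose in it against the lateral plate, where 3.52% rose. Chick PRRX2 and ALX1 passed the filter on low counts only through their somatopleure libraries. For them a rise there was favoured by the filter, and these shares are no measure of it. In the splanchnopleure, PRRX1 and ALX4 fell against the lateral plate, where 7.78% of genes fell.

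PRRX1 had a graded level, and the chick tissue means of ALX4 and, near the limit of counting, PRRX2 had the same order. In the chick PRRX1 was read at 142, 257 and 269 CPM in lateral plate 30, 31 and 32. In somatopleure 15, 60 and 63 it was at 486, 769 and 806 CPM. Splanchnopleure 50, 61 and 64 gave 101, 18.4 and 76.5 CPM. No library of a tissue entered the range of another, and the order was somatopleure, lateral plate, splanchnopleure, with means of 687 ± 175, 223 ± 70.1 and 65.3 ± 42.5 CPM (SD, n = 3 each). The change from the lateral plate to the somatopleure was 1.63 (SE 0.44, 95% interval 0.65 to 2.61, adjusted p = 0.0418). That call did not hold without lateral plate 30 (adjusted p = 0.151), 31 (0.0855) or 32 (0.0971), without somatopleure 60 (0.104) or 63 (0.1), or without splanchnopleure 64 (0.0503). The fall to the splanchnopleure was -1.76 (SE 0.46, 95% interval -2.77 to -0.75, adjusted p = 0.0248). It was not called without lateral plate 31 (adjusted p = 0.0649), lateral plate 32 (0.0886) or splanchnopleure 64 (0.0634). The 2 layers differed by 3.39 (SE 0.48, 95% interval 2.33 to 4.45, adjusted p = 7.44e-04), and this call held with any single library left out.

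PRRX2, the close relative of PRRX1, was near the limit of counting outside the chick somatopleure. Lateral plate 30, 31 and 32 held 0, 8 and 3 reads, and splanchnopleure 50, 61 and 64 held 2, 1 and 4. Somatopleure 15, 60 and 63 held 88, 67 and 257 reads, or 11, 8.53 and 31.6 CPM. Every somatopleure library lay above all others, with library 63 well above the other 2. The rise was 4.88 against the lateral plate (SE 0.77, 95% interval 3.18 to 6.58, adjusted p = 0.00251) and 5.66 against the splanchnopleure (SE 0.82, 95% interval 3.85 to 7.47, adjusted p = 8.44e-04). Lateral plate and splanchnopleure overlapped, and their difference of -0.78 had an interval from -3.30 to 1.75 (adjusted p = 0.692).

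ALX1, a regulator of head and face mesenchyme, was likewise highest in the chick somatopleure. It was at 0.242, 0.741 and 0.200 CPM in lateral plate 30, 31 and 32, from 2, 5 and 1 reads. In somatopleure 15, 60 and 63 it reached 59.9, 45.8 and 33.6 CPM, from 480, 360 and 273 reads. Splanchnopleure was uneven, at 7.51 CPM in library 50, 0.153 in library 61 and 1.06 in library 64. No library of another tissue came near the somatopleure. Its change of 6.80 against the lateral plate (SE 0.92, 95% interval 4.78 to 8.82, adjusted p = 9.23e-04) was the largest of any member in the chick. Between the layers it was 4.02 (SE 0.70, 95% interval 2.48 to 5.56, adjusted p = 0.00247), and 6.13 without splanchnopleure 50. Splanchnopleure and lateral plate overlapped and did not pass the test (2.78, SE 1.11, adjusted p = 0.112), though they did without splanchnopleure 61 (adjusted p = 0.029).

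ALX4, which limits anterior digit formation in the mouse limb bud, stood apart from ALX1 in that the lateral plate already held it. Lateral plate 30, 31 and 32 were close together at 6.05, 6.38 and 7.61 CPM. Somatopleure 15, 60 and 63 spread more widely, at 21.2, 7.51 and 13.7 CPM. Splanchnopleure 50, 61 and 64 gave 1.2, 0.153 and 1.30 CPM. Somatopleure 60 fell just below lateral plate 32, so these tissues overlapped, and their difference of 1.09 was not called (SE 0.43, 95% interval 0.13 to 2.04, adjusted p = 0.151). Splanchnopleure lay below every other library. ALX4 was -2.84 there against the lateral plate (SE 0.55, 95% interval -4.05 to -1.64, adjusted p = 0.00679), and 3.93 higher in the somatopleure than in the splanchnopleure (SE 0.53, 95% interval 2.75 to 5.11, adjusted p = 5.64e-04).

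**Figure D1:**
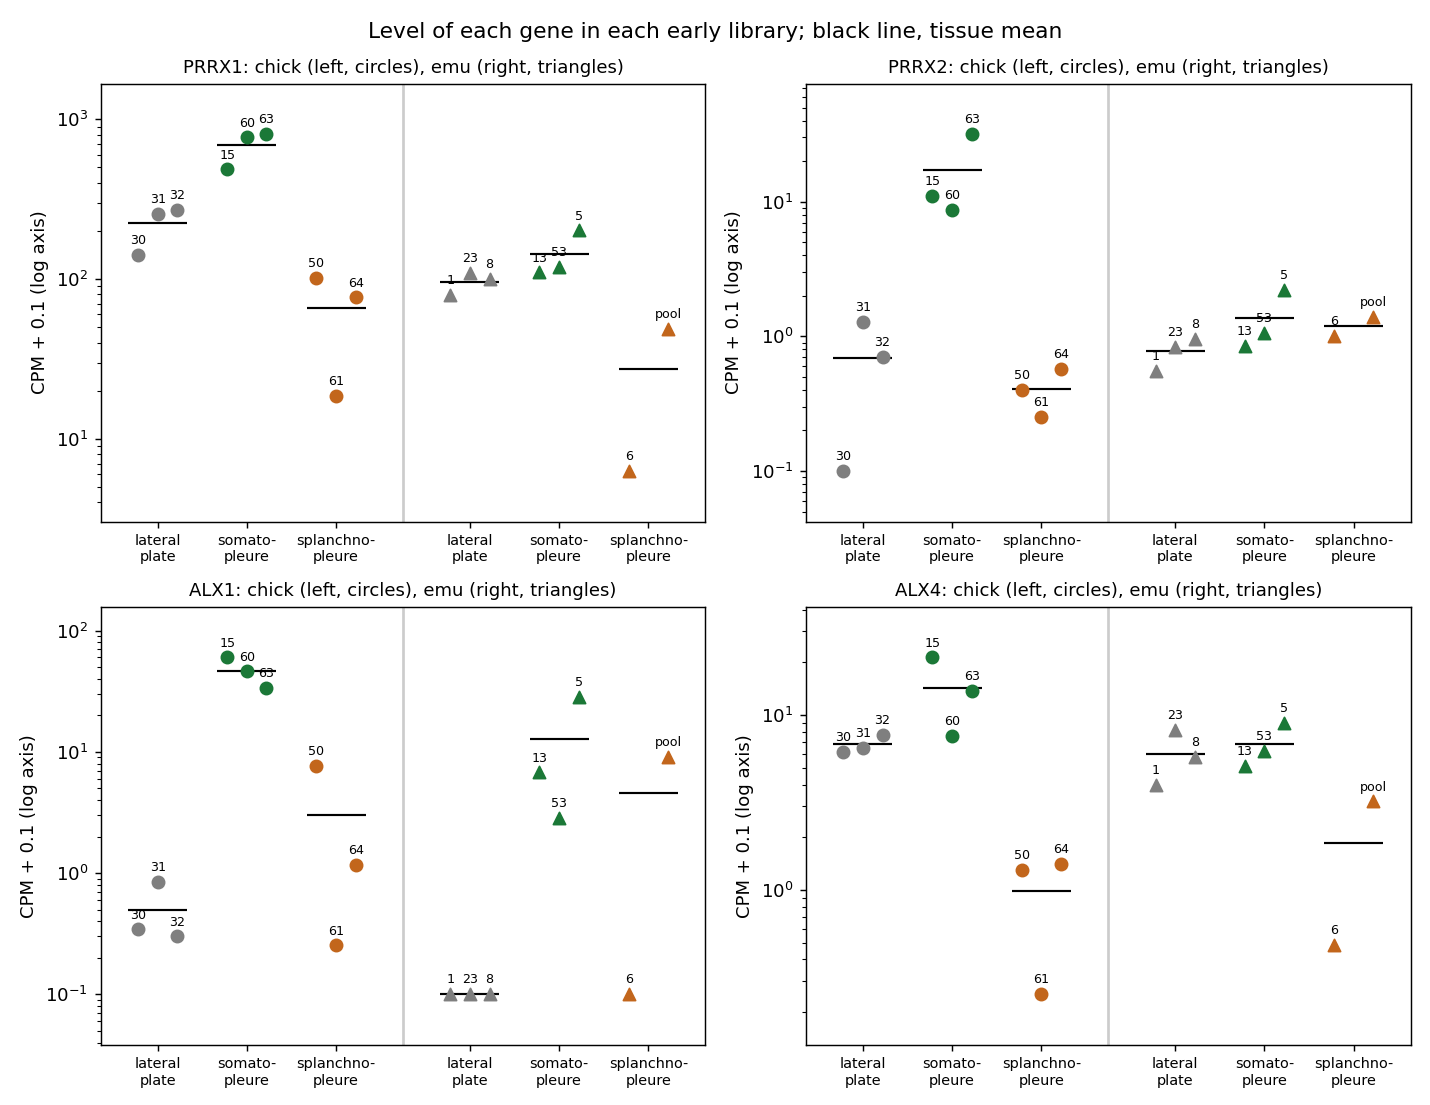
Level of each gene in every library, in CPM after TMM scaling (vertical axis, log scale), by species and tissue; 0.1 is added to each level so that libraries with no read can be drawn. Circles are chick and triangles emu libraries, with their numbers, and black lines are tissue means. Among the chick tissues the somatopleure has the highest mean for all 4 genes, with 1 library of ALX4 (7.51 CPM) level with the lateral plate. Emu ALX1 has no read in any lateral plate library. Levels were not compared between the birds.

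In the emu, 1 of the 4 genes passed a test: PRRX1, higher in the somatopleure than in the splanchnopleure, where 5.05% of the 10640 genes tested rose. Against the lateral plate no gene of the table was called in the somatopleure (0% of genes), although 1107 had an unadjusted p under 0.05 and DESeq2 called 140. Of the members 1, ALX1, had an unadjusted p under 0.05, and DESeq2 called 0. None of the 4 was called in the splanchnopleure against the lateral plate, where 11.4% of genes rose and 9.21% fell. In that comparison 3 of the members had an unadjusted p under 0.05, as had 3846 of the 10640 genes tested, and DESeq2 called 0 members.

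Emu PRRX1 was at 79.7, 109 and 99.8 CPM in lateral plate 1, 23 and 8. Somatopleure 13, 53 and 5 gave 109.9, 119 and 201 CPM. Splanchnopleure 6 was at 6.19 CPM and the pooled splanchnopleure at 48.5. The order was that of the chick, with no overlap between tissues, but somatopleure 13 exceeded lateral plate 23 only narrowly. The change from lateral plate to somatopleure was 0.58 (SE 0.53, 95% interval -0.63 to 1.78, adjusted p = 0.741). The splanchnopleure lay at -1.82 against the lateral plate (SE 0.65, 95% interval -3.29 to -0.34, adjusted p = 0.0784). Between the layers PRRX1 rose by 2.39 (SE 0.67, 95% interval 0.88 to 3.90, adjusted p = 0.0461).

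Which emu splanchnopleure library was read set much of this result. Without library 6 the PRRX1 difference between the layers was 1.57 (adjusted p = 0.0811), and without the pool it was 4.53 (adjusted p = 0.00329). Leaving out lateral plate 1 (adjusted p = 0.0683), 23 (0.0744) or 8 (0.0773), or somatopleure 13 (0.0772), 53 (0.0707) or 5 (0.0675), also took the adjusted p above the threshold. Against the lateral plate, PRRX1 was called without the pool (-3.95, adjusted p = 0.00367), as was ALX4 (-3.87, adjusted p = 0.0207).

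Emu ALX4 was at 3.88, 8.13 and 5.63 CPM in lateral plate 1, 23 and 8, and at 5.02, 6.14 and 8.94 CPM in somatopleure 13, 53 and 5. Splanchnopleure 6 gave 0.387 CPM and the pool 3.11. Lateral plate and somatopleure covered the same range, with a difference of 0.19 (95% interval -1.08 to 1.46, adjusted p = 0.935), and both splanchnopleure libraries lay below them. The layers differed by 1.93 (SE 0.71, 95% interval 0.33 to 3.54, adjusted p = 0.105), which edgeR called without the pool (4.06, adjusted p = 0.022) and DESeq2 called with it (adjusted p = 0.0364).

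Emu ALX1 had no read in any of the 3 lateral plate libraries. In somatopleure 13, 53 and 5 it had 53, 20 and 215 reads, or 6.66, 2.73 and 28.3 CPM. Splanchnopleure 6 had no read and the pool 69, or 8.93 CPM. Each somatopleure library was thus above all of the lateral plate, and library 5 stood far above the other 2. Against a floor of 3 reads per lateral plate library, 0.360 CPM, the somatopleure mean of 12.6 CPM was at least 34.9-fold higher, and its lowest library, 53, at least 7.59-fold higher. The floor covers counting error only. ALX1 was not called against the lateral plate in either layer (adjusted p = 0.339 for the somatopleure, 0.0830 for the splanchnopleure). The layers overlapped, with a difference of 1.49 (SE 1.45, 95% interval -1.93 to 4.91, adjusted p = 0.533). ALX1 and PRRX1 were the members whose emu somatopleure libraries all lay above the lateral plate ones, 2 of 4, against 7.94% of genes tested. That share is no measure for ALX1, which could pass the filter on low counts only through the layers. PRRX1 met the condition narrowly, at 109.9 CPM in somatopleure 13 against 109.3 CPM in lateral plate 23.

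Emu PRRX2 stayed near the limit of counting in every tissue. Lateral plate 1, 23 and 8 held 4, 6 and 7 reads. Somatopleure 13, 53 and 5 held 6, 7 and 16, and splanchnopleure 6 and the pool held 7 and 10. Its highest library, somatopleure 5, was at 2.10 CPM, and all others were at 1.29 CPM or less. No comparison of emu PRRX2 passed the test, with 0.88 for somatopleure against lateral plate (95% interval -0.45 to 2.22, adjusted p = 0.646), 0.68 for splanchnopleure against lateral plate (95% interval -0.81 to 2.16, adjusted p = 0.50) and 0.21 between the layers (95% interval -1.23 to 1.64, adjusted p = 0.857).

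**Figure D2:**
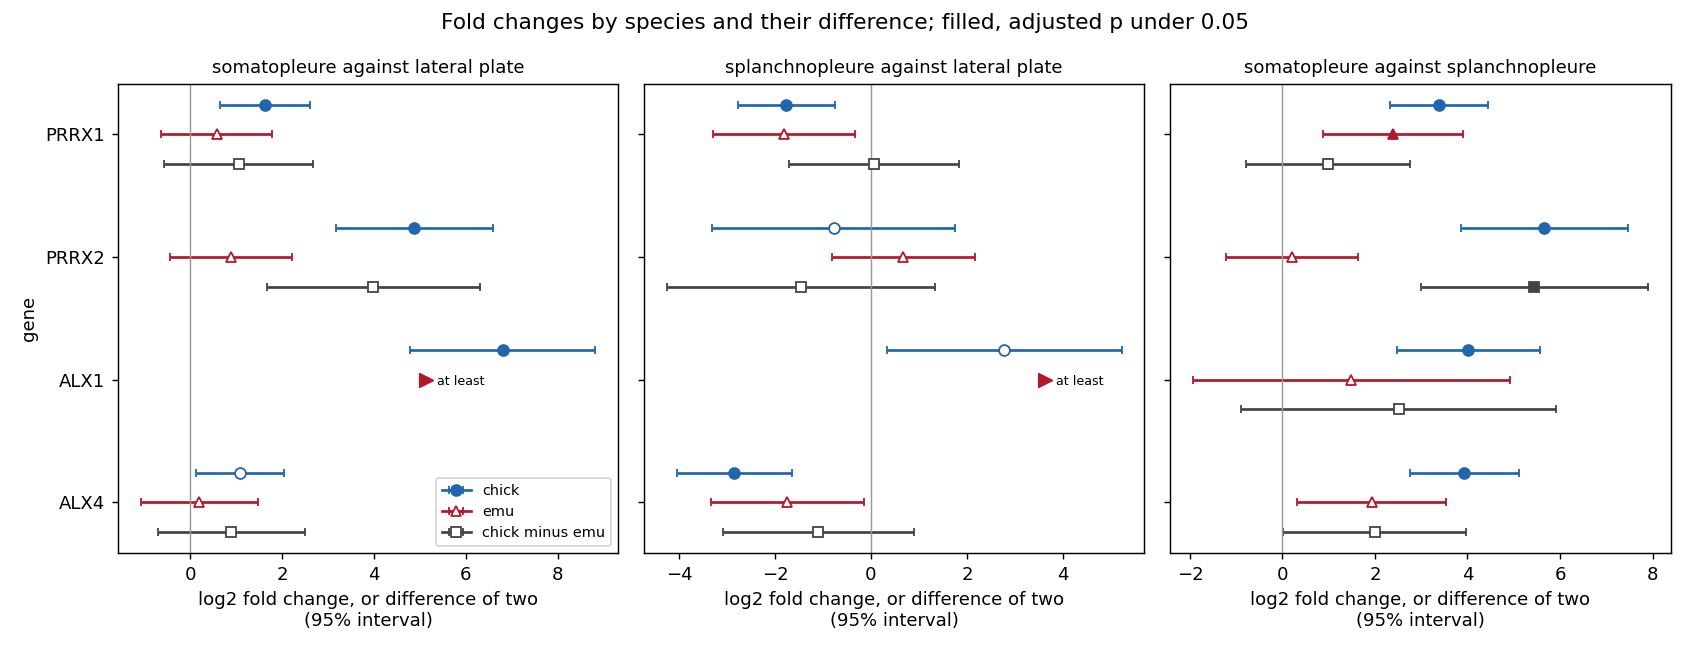
Log2 fold change of each gene (horizontal axis) with its 95% interval from edgeR, in the chick (circles), the emu (triangles) and as the chick minus emu difference (squares), for the 3 pairs of tissues; filled points with an interval passed an adjusted p of 0.05, and arrows marked "at least" are lower bounds for emu ALX1 against the lateral plate, which had no read. These bounds are for tissue means, and that of the splanchnopleure rests on the pool alone, as splanchnopleure 6 had no read. Chick ALX1 reaches 6.80 in somatopleure against lateral plate, and of the emu intervals only that of PRRX1 between the layers has a filled point.

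The design also asks whether a tissue difference was larger in one bird. This was tested as an interaction, the chick change minus the emu change, over 9736 genes. Between the layers PRRX2 rose by 5.44 more in the chick (SE 1.16, 95% interval 2.99 to 7.90, adjusted p = 0.0125), in a comparison where 2.36% of genes differed in that direction. As chick PRRX2 passed the filter only through the somatopleure, that share is no measure for PRRX2. DESeq2 gave 5.56 with an adjusted p of 1.69e-04. In edgeR the call was lost without the pooled emu splanchnopleure (adjusted p = 0.0522), and without emu somatopleure 5, where it had 16 reads, PRRX2 no longer passed the filter on low counts.

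For somatopleure against lateral plate, the PRRX2 difference was 3.99 (SE 1.09, 95% interval 1.67 to 6.30, adjusted p = 0.0643). It was past the threshold without chick lateral plate 31 (adjusted p = 0.0448) and in DESeq2 (4.02, adjusted p = 0.00812). Of all genes tested, 2.96% differed between the birds in this comparison in edgeR, in either direction. PRRX1 and ALX4 were not called: PRRX1 gave 1.05 (95% interval -0.57 to 2.67, adjusted p = 0.527) and ALX4 gave 0.89 (95% interval -0.72 to 2.50, adjusted p = 0.603). These intervals leave room for a difference in either direction.

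Between the layers, PRRX1 differed by 0.99 (95% interval -0.79 to 2.76, adjusted p = 0.543), ALX1 by 2.52 (95% interval -0.89 to 5.92, adjusted p = 0.395) and ALX4 by 1.99 (95% interval 0.02 to 3.97, adjusted p = 0.235). For splanchnopleure against lateral plate, where 9.57% of genes differed between the birds, PRRX1 differed by 0.06 (95% interval -1.71 to 1.84, adjusted p = 0.970), PRRX2 by -1.46 (adjusted p = 0.520) and ALX4 by -1.10 (adjusted p = 0.491). ALX1 was not called in either species difference against the lateral plate (adjusted p = 0.769 for the somatopleure, 0.436 for the splanchnopleure), and its fitted sizes are not given, because with the emu lateral plate at 0 they depend on the prior count.

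The levels of PRRX2, ALX1 and ALX4 were also read against PRRX1, as reads of a gene per 1000 PRRX1 reads of the same library. No difference in these ratios could pass the permutation test used, whose smallest possible p was 0.1 with so few libraries. That test therefore shows neither a difference nor its absence, and the ratios are only described. In the chick, ALX1 gave 1.71, 2.89 and 0.744 in lateral plate 30, 31 and 32, and 123, 59.7 and 41.7 in somatopleure 15, 60 and 63. In emu somatopleure 13, 53 and 5 it gave 60.6, 22.9 and 140. The sizes of these ratios are not compared between the birds. They carry no correction for gene length, and the genome used for emu reads is not given. In both birds every somatopleure library lay above every lateral plate library in this ratio, the emu lateral plate being at 0.

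PRRX2 gave 22.6, 11.1 and 39.2 per 1000 PRRX1 reads in chick somatopleure 15, 60 and 63, against 0, 4.62 and 2.23 in the lateral plate. Emu somatopleure 13, 53 and 5 gave 6.86, 8.02 and 10.5, and the emu lateral plate 5.73 to 8.59. The ratios of these tissues did not overlap in the chick and overlapped in the emu, a contrast between the birds that was not tested in this ratio. In the emu splanchnopleure the ratio was 146 in library 6, where PRRX1 had 48 reads and PRRX2 had 7, and 26.7 in the pool.

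The ratio of ALX4 to PRRX1 lay between 44.4 and 74.3 in all 8 emu libraries, splanchnopleure included. In splanchnopleure 6 it rests on 3 ALX4 and 48 PRRX1 reads and is imprecise. In the chick it was 42.6, 24.8 and 28.3 in the lateral plate, 43.7, 9.78 and 17 in somatopleure 15, 60 and 63, and 11.9, 8.33 and 17 in the splanchnopleure. With 3 libraries against 3, or 3 against 2 where the emu splanchnopleure is involved, an exact two-sided permutation test cannot give a p below 0.1, and over 18 such tests the lowest adjusted p was 0.2.

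**Figure D3:**
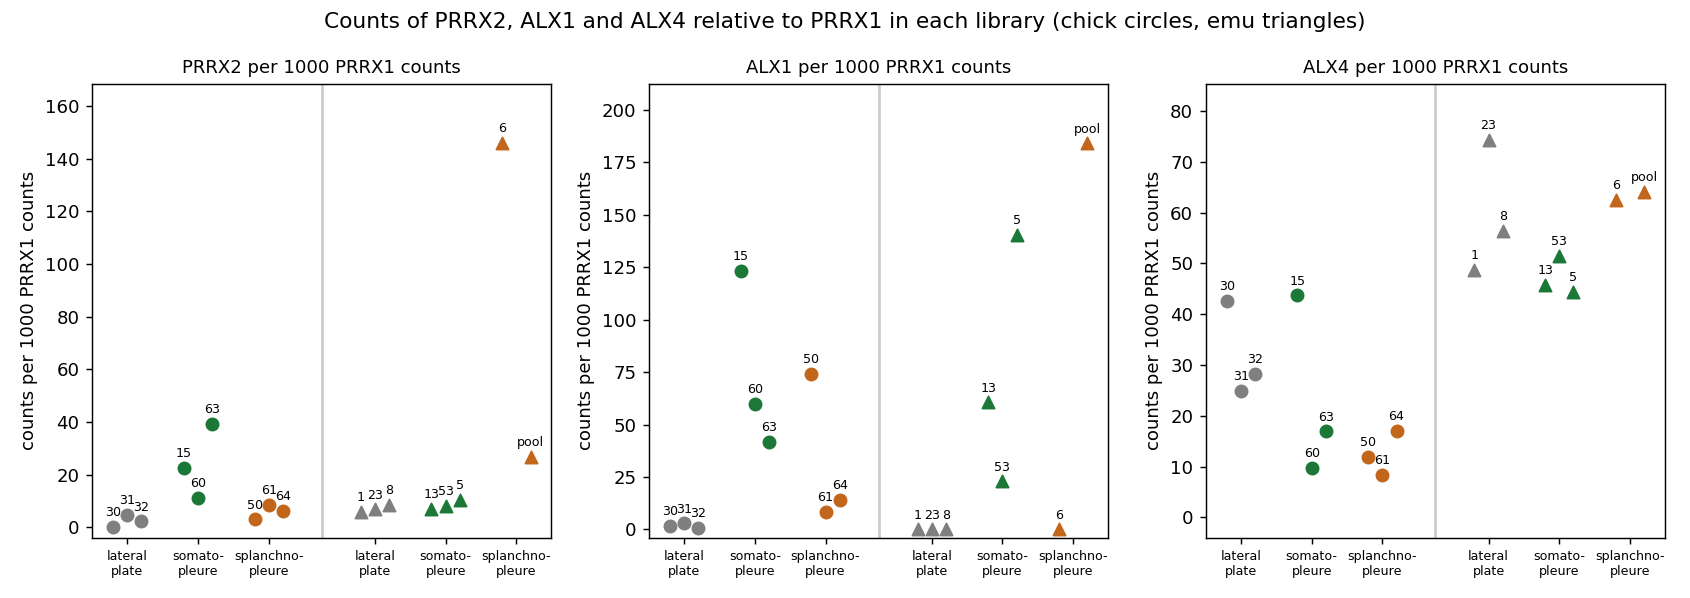
Reads of PRRX2, ALX1 and ALX4 per 1000 PRRX1 reads of the same library (vertical axis), by species and tissue; each point is a library. Chick somatopleure lies highest for PRRX2 among the chick tissues (11.1 to 39.2), and emu ALX4 stays between 44.4 and 74.3.

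Across libraries, PRRX1 and ALX4 moved together most closely, with a Pearson r of log2 CPM of 0.922 over the 9 chick and 0.985 over the 8 emu libraries. Emu splanchnopleure 6, the lowest emu library for both, held 3 reads of ALX4. PRRX2 and ALX1 came next, at 0.860 and 0.750. PRRX1 and PRRX2 had 0.810 in the chick and 0.175 in the emu, and ALX1 and ALX4 had 0.537 and 0.349. These values mix differences between tissues with those between libraries of 1 tissue, and no p is given. Emu PRRX2 had 4 to 16 reads per library, so its emu values of r are imprecise and lean on somatopleure 5. Whether r differed between the birds was not tested.

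Of 8483 genes with a symbol and a mean log2 CPM of at least 1 in both birds, some had profiles close to those of the members. Nearest to PRRX1 were NOTUM, an enzyme that inactivates Wnt proteins (r of 0.923 in chick, 0.866 in emu), PVRL3, a nectin of cell junctions (0.872 and 0.914), and KIFAP3 (0.945 and 0.826). NOTUM was also the nearest to ALX4 (0.970 and 0.836), followed by SP5, a transcription factor downstream of Wnt signals (0.912 and 0.886), and NUP98, a nuclear pore protein (0.880 and 0.878) whose level varied far less than that of ALX4. Nearest to PRRX2 were BAMBI, a decoy receptor of the TGF-beta family (0.949 and 0.928), the mesenchymal regulator TWIST1 (0.958 and 0.909) and CDON, a Hedgehog co-receptor (0.958 and 0.818). The emu values for PRRX2 rest on few reads, its mean level there being below the minimum asked of the other genes. Nearest to ALX1 were ZEB1, a repressor tied to mesenchymal states (0.931 and 0.906), NDNF (0.944 and 0.871) and TBX5 (0.972 and 0.829). PRRX1 and ALX4 shared NOTUM, and PRRX2 and ALX1 shared none of their 3.

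**Figure D4:**
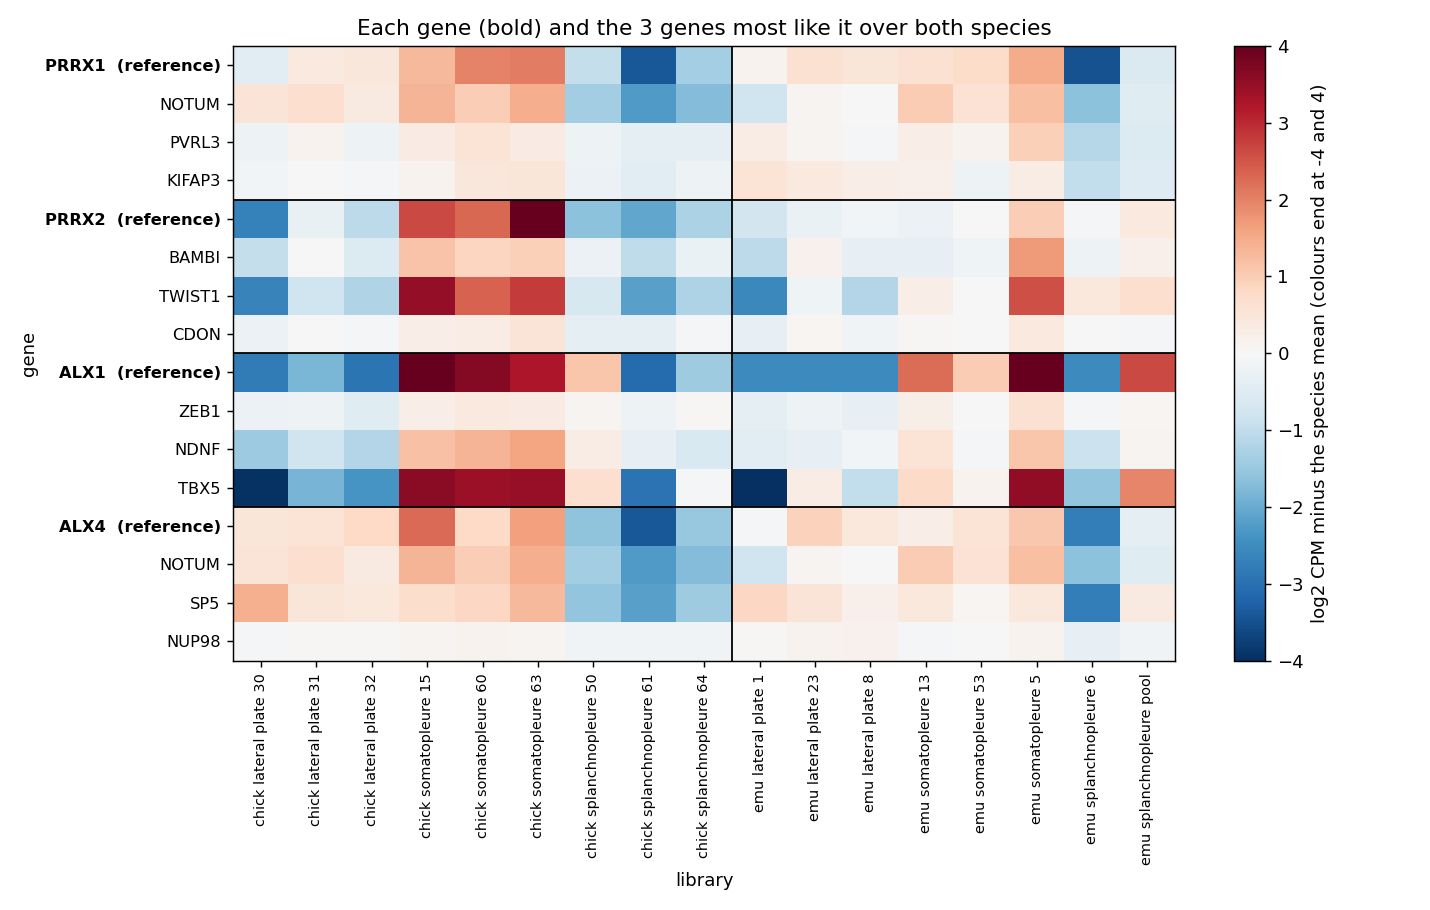
Log2 CPM of each member (bold) and of the 3 genes closest to it in profile, minus the gene's mean in that species (colour, from -4 to 4), with 1 column per library, chick on the left and emu on the right. Chick somatopleure is above the mean for each member, and emu somatopleure 5 is the highest emu library for each.

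TBX5, the factor that starts forelimb formation, shared the uneven emu layer libraries of ALX1. It was at 10.8, 6.96 and 76.9 CPM in somatopleure 13, 53 and 5, and 1.93 and 25.2 CPM in splanchnopleure 6 and the pool. In emu lateral plate 1, 23 and 8 TBX5 was at 0.114, 7.76 and 3.06 CPM, where ALX1 had no read. TWIST1 shared the uneven somatopleure libraries of PRRX2, with 2.39, 1.91 and 13 CPM in somatopleure 13, 53 and 5. Emu somatopleure 5 was the highest emu library for all 4 members and for TBX5 and TWIST1. TBX5 and TWIST1 were picked above for profiles like those of ALX1 and PRRX2 over these same libraries. The shared pattern follows from that choice and is not a separate result.

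Other genes of the paired class did not share the members' direction. Of 31 listed, 16 are in the tables and 7 were tested in each bird. In chick somatopleure 0 rose and 3 fell, both against the lateral plate (6.28% of all genes fell) and against the splanchnopleure (11.8% fell), and the median log2 change between the layers was -0.56 (3.98 for the 4 members, -0.00 for all genes). The members' median between the chick layers includes PRRX2 and ALX1, whose rise was favoured by the filter on low counts. PRRX1 and ALX4 lay at 3.39 and 3.93. PITX1, a hindlimb regulator, lay at -4.71 between the chick layers. In chick splanchnopleure 4 of the 7 rose against the lateral plate (9.07% of all genes rose), but 2 without lateral plate 30, splanchnopleure 50 or splanchnopleure 61 and 1 without lateral plate 32. Between the emu layers 0 rose and 2 fell (8.34% of all genes fell), with a median of -0.37 against 1.71 for the members, and 1 rose without somatopleure 5. PITX3, a lens and neuron regulator, was among those that fell, at -3.81.

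Among 22 tested regulators of the limb field and its mesenchyme, 9 rose and 2 fell in chick somatopleure against splanchnopleure, with a median of 0.88. Of all genes, 7.34% rose and 11.8% fell there. TWIST1 rose by 4.28, TBX5 by 3.69 and MSX2, a homeobox gene of limb mesenchyme, by 2.59. In the emu 4 rose and 0 fell (5.05% and 8.34% of all genes), with a median of 1.0. But 2 rose without somatopleure 13 and 0 without splanchnopleure 6, and 1 fell without lateral plate 23 or somatopleure 53. LMX1B, a dorsal determinant of the limb, rose by 3.78 and MSX1 by 1.65. Against the lateral plate 5 rose and 4 fell in chick somatopleure (3.52% and 6.28% of all genes). The median was -0.03 against 3.25 for the members, and 2 fell without lateral plate 30. The members' median is raised by PRRX2 and ALX1, whose rise there was favoured by the filter on low counts. PRRX1 and ALX4 lay at 1.63 and 1.09.

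Between the layers, genes of mesenchyme and its matrix went the other way from the members. In chick somatopleure 2 of 25 rose and 17 fell against the splanchnopleure (7.34% and 11.8% of all genes), with a median of -1.05. In the emu 1 of 26 rose and 14 fell (5.05% and 8.34% of all genes), with a median of -1.21. Without somatopleure 13 the emu count was 8, and without splanchnopleure 6 it was 6. The single emu rise missed the threshold when splanchnopleure 6 or any lateral plate library was removed. Against the lateral plate they did not: 4 of 25 rose and 5 fell in chick somatopleure (3.52% and 6.28% of all genes). Their median was 0.13, and 3 fell without lateral plate 32 or somatopleure 15 or 60. In emu somatopleure 0 of 26 were called by edgeR, as were 0% of all genes, so that count carries no information on these genes. Their median was 0.46. Of 15 tested limb induction signals and receptors, 5 rose and 3 fell between the chick layers (7.34% and 11.8% of all genes).

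Markers of other cell types moved with some of these values. Splanchnopleure 61, the chick library lowest for PRRX1, ALX1 and ALX4, had the highest summed level of the 11 surface ectoderm genes of any chick library (1084 CPM, against 423 and 554 CPM in splanchnopleure 50 and 64). Lateral plate 30, lowest of its tissue for PRRX1 and PRRX2, had 579 CPM of posterior growth zone genes, against 119.6 and 196 CPM in lateral plate 31 and 32. A setting chosen after seeing the data left out both lateral plate 30 and splanchnopleure 61. The numbers of members called in the chick then stayed at 3, 2 and 4 (somatopleure against lateral plate, splanchnopleure against lateral plate, and between the layers). Leaving out lateral plate 30 alone lost the PRRX1 call in the first of these (edgeR adjusted p = 0.151). Between the emu layers 7 of the 11 ectoderm genes rose (5.05% of all genes), 2 of them without splanchnopleure 6 and 3 without the pool. In the chick 0 of 11 rose and 1 fell between the layers (7.34% and 11.8% of all genes). But 8 rose without splanchnopleure 61 and 0 fell without somatopleure 60.

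The 16 endothelial genes summed to 287 to 440 CPM in chick somatopleure and 1208 to 1769 CPM in splanchnopleure, and 12 of 16 fell between the layers. In the emu they summed to 331 to 811 CPM and 1442 to 2716 CPM, and 13 fell, but 7 without somatopleure 13 and 1 without splanchnopleure 6. Of all genes, 11.8% fell between the chick layers and 8.34% between the emu layers. Emu splanchnopleure 6, lowest of the emu libraries for PRRX1 and ALX4, had the highest endothelial sum, and somatopleure 5, highest for all 4 members, the lowest. Of the splanchnic mesoderm genes, 9 are in the tables, summing to 306 to 384 CPM in chick somatopleure and 605 to 792 CPM in splanchnopleure, where 4 of 7 tested fell from the splanchnopleure to the somatopleure. Other cell types also moved with the members' rise in chick somatopleure against the lateral plate. There 11 of 16 endothelial genes fell, with a median of -1.76, from 984 to 1253 CPM in the lateral plate. Of the endoderm genes 4 of 6 fell (median -2.82), as did 2 of 3 somite genes (median -2.31). Of the posterior growth zone genes 4 of 7 fell and 1 rose (median -2.81), that rise missing the threshold when lateral plate 30, lateral plate 32, somatopleure 60 or somatopleure 63 was removed. In that comparison 6.28% of all genes fell and 3.52% rose. The part of any of these cell types in the members' results was not tested.

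Neural crest, another source of mesenchyme that uses ALX and PRRX genes, is represented by 7 genes in the tables. Their sum was 113 to 146 CPM in chick somatopleure and 64.3 to 93.3 CPM in splanchnopleure. Between the chick layers edgeR called 0 of 6 tested, where 7.34% of all genes rose and 11.8% fell. A count of 0 in so short a list is near these shares and is not read as a result. The median log2 change of these 6 was 0.59. The defining crest marker SOX10 stood at 1.85 CPM or less in every library. It had 13, 13 and 15 reads in chick somatopleure 15, 60 and 63, and 0, 5 and 0 in splanchnopleure 50, 61 and 64. TFAP2B, also on the list, was at 30.1, 9.04 and 13.5 CPM in those somatopleure libraries. In those splanchnopleure libraries it was at 0, 9.95 and 0.473 CPM, so the layers overlapped. Between the emu layers 3 of 5 rose and 1 fell (5.05% and 8.34% of all genes). Without splanchnopleure 6 the counts were 1 and 0, and 2 fell without somatopleure 53 or the pool. In the chick 2 rose without splanchnopleure 61 and 1 without splanchnopleure 64.

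On the chicken chromosomes of the RefSeq table (GRCg7b, used for gene order only), the nearest genes to the members in the tables were GORAB for PRRX1, ASB6 and PTGES for PRRX2, LRRIQ1 and RASSF9 for ALX1, and EXT2 and CD82 for ALX4. GORAB, ASB6 and EXT2 passed no test. LRRIQ1 rose with ALX1 between the chick layers, by 2.57 (SE 0.73, adjusted p = 0.032). CD82, a membrane protein, lay at -0.79 between the chick layers (adjusted p = 0.033), opposite to ALX4. PTGES, a prostaglandin synthase, was too low to test in the chick and lay at -2.43 between the emu layers (adjusted p = 0.0027), where PRRX2 was at 0.21.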

How the data were processed

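The deposited tables hold read counts per gene, not normalized, of 17 early libraries. Per the submitters' processing notes, STAR, featureCounts, DESeq and the assembly galGal4 were used, without versions. The genome used for emu reads, the strand setting and the treatment of shared reads are not given in the sources used here. Tables of HH18 limb buds, which name genes by identifiers only, were not analysed here. Each species was fitted over its 3 tissues with edgeR 4.0.16 in R 4.3.3 (TMM, filterByExpr with minimum count 10 and minimum total 15, two-sided quasi-likelihood F test with Benjamini-Hochberg adjustment over all genes), which tested 10071 chick and 10640 emu genes. Species differences were interactions in a fit of 9736 genes passing both filters. The biological coefficient of variation was 0.168 in chick and 0.221 in emu. On simulated data the edgeR fit recovered known changes for somatopleure against lateral plate, in each bird and as a species difference. The other comparisons, DESeq2 and the ratio test were not simulated. The simulation gave both birds a spread near that of the chick. It changed only genes with a higher mean level than PRRX2 has in the emu. Every replicate pair differed by more than sampling noise, with chi-square per degree of freedom of 4.04 or more.

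Besides the members, genes were named if closest in profile (mean over species of Pearson r of log2 CPM, prior count 2), as neighbours, or as the largest called changes of a list. The members and the 13 gene lists were chosen with earlier results of these data known. Alternatives were DESeq2 1.42.0, other filters and scalings, fits of 2 tissues, and leaving out libraries. Intervals for fold changes use the t distribution of the fit.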

Additional observations from a re-analysis of the deposited data

Results flagged for a closer look

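PRRX2 differed between the birds in the contrast of somatopleure with splanchnopleure, by 5.44 on the log2 scale in a joint fit. Fitted by bird, the contrast was 5.66 in the chick and 0.21 in the emu. Chick PRRX2 passed the filter on low counts only through the somatopleure. The call did not hold without the pooled emu splanchnopleure, where the size was 5.16. Leaving out emu somatopleure 5, or a stricter filter, removed PRRX2 from the test. PRRX2 had 88, 67 and 257 reads in chick somatopleure 15, 60 and 63. In chick splanchnopleure 50, 61 and 64 it had 2, 1 and 4. The emu libraries of these tissues overlapped. Emu PRRX2 rests on 4 to 16 reads per library, with an interval for the emu change from -1.23 to 1.64. The genome those reads were aligned to is not stated, and its part in the difference was not tested.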

How the results depend on the processing

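Each number of members called kept its value, apart from the following. By DESeq2, 2 members were called between the emu layers in place of 1, and 1 in the species difference of somatopleure against lateral plate in place of 0. The emu layers gave 0 when fitted alone or without the libraries of the other stage label (PRRX1 adjusted p = 0.124 and 0.116), and the species difference between the layers gave 0 with a stricter filter, which removed PRRX2. Chick PRRX1 in somatopleure against lateral plate missed the threshold in DESeq2 (adjusted p = 0.0542), so fewer members were called there than by edgeR.

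With single libraries left out, members called ranged over 2 to 3, 1 to 3 and 4 to 4 in the chick (somatopleure and splanchnopleure against lateral plate, then the layers), 0 to 0, 0 to 2 and 0 to 2 in the emu, and 0 to 1, 0 to 0 and 0 to 1 in the species difference. Values whose sign turned ranged from -1.47 to 0.42 for chick PRRX2 in splanchnopleure against lateral plate, -0.074 to 0.49 for emu ALX4 in somatopleure against lateral plate, and -0.023 to 0.48 for emu PRRX2 between the layers. In the species difference they ranged from -0.76 to 2.21 for PRRX1 and -1.93 to 1.03 for ALX4 in splanchnopleure against lateral plate, and between the layers from -1.16 to 1.81 for PRRX1, -5.51 to 4.63 for ALX1 and -0.13 to 2.82 for ALX4. The -5.51 for ALX1 came without the pooled emu splanchnopleure, which leaves library 6, where ALX1 had no read. With that tissue at 0, the fitted size depends on the prior count and is not read as a reversal. The cause of the other sign changes was not tested.

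Over all genes, DESeq2 called 140 in place of 0 (emu somatopleure against lateral plate), 585 in place of 288 and 842 in place of 532 (species difference of somatopleure against lateral plate and between the layers). Without the emu libraries of the other stage label, 654 in place of 2196 were called in emu splanchnopleure against lateral plate, 453 in place of 1424 between the layers (562 with these tissues alone), and 97 in place of 288 and 575 in place of 932 in the species differences against the lateral plate. With chick lateral plate 30 and splanchnopleure 61 out, a setting chosen after seeing the data, 599 in place of 987 and 769 in place of 1697 were called against the chick lateral plate, and 139 and 417 in those species differences. Few reads limit the precision for PRRX2 in the emu and for ALX1 in the lateral plate, although emu totals lay within or above the chick range, and the part of the genome used to count emu reads was not tested. No paired analysis was possible because the early tissues share no replicate numbers.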

Other observations

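The other marker lists were read between the layers as well. Of all genes, 7.34% rose and 11.8% fell between the chick layers, and 5.05% rose and 8.34% fell between the emu layers. A count of 1 gene in a short list is near these shares and is not read as a result. Of the chick endoderm genes 3 of 6 tested fell in the somatopleure, and all 6 without somatopleure 15, while 3 of 7 fell in the emu. Of the somite genes 2 of 3 fell in the chick, but 1 without somatopleure 60 or 63 or splanchnopleure 61, and in the emu 0 of 4 were called by edgeR, or 1 without somatopleure 5. Of the posterior growth zone genes 1 of 7 rose and 1 fell in the chick, and 2 fell without somatopleure 15. Both nephric genes rose in the emu layers, but 1 or 0 rose with most single libraries left out, and neither was called in the chick. The 1 red blood cell gene tested was called in neither bird, but fell without chick somatopleure 15 and without emu somatopleure 5. In the emu, 2 of 15 limb induction genes rose and 2 fell, with ranges of 1 to 2 and 0 to 2 when single libraries were left out. Of 7 emu splanchnic mesoderm genes 1 fell, but 0 without somatopleure 13 or 53 or either splanchnopleure library, and 2 without somatopleure 5.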
